A study of Drosophila melanogaster with 28 samples.

Results

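The strongest shared H3K4me3 bins are the 500 windows of 1000 bp whose immunoprecipitated (IP) signal stood highest over input in all 4 H3K4me3 replicates of Drosophila melanogaster testis tumours. They were selected on those H3K4me3 values. Signal was averaged over 132535 bins of chromosomes 2, 3 and X, 114369 bins with an input signal of 0.3 or more in each H3K4me3 input were kept, and log2((IP + 0.1)/(input + 0.1)) was taken per same-numbered replicate. Bins were ranked by the lowest of the 4 values, and the first 500 are the members. The label only partly describes them. A transcript start lies in 223 members, or 44.6%, against 15.0% of kept bins. Another 152 members (30.4%, against 11.0%) lie within 500 bp of one. The remaining 125 members (25.0%, against 74.0%) lie farther from any annotated start. Of these 125, 124 (99.2%) are more than 50% coding sequence, against 14.2% of kept bins in that class. Median GC content was 54.4% in the members and 41.9% in kept bins, and centring the H3K4me3 values within GC content left 114 of the 500 bins among the first 500.

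Tumours were made by overexpressing the Unpaired (Upd) ligand of the JAK-STAT pathway with 1 of 2 drivers, each of which also drives a GFP-tagged histone H3. An anti-GFP complex with protein A and micrococcal nuclease (MNase) cut the tagged chromatin, and the released chromatin was kept in small part as input and otherwise immunoprecipitated for 1 histone mark. The 28 libraries form 12 groups, with 2 replicates per group for H3K4me3 and H3K9me3 and 3 for H3K27me3. The germline group (Nanos-Upd, GSC-like chromatin) carried y[1] w[1118] P{hs70FLP}, with the driver P{w[+mC]=GAL4::VP16-nanos.UTR} over UAS-Upd and + over UAS-FRT-H3-GFP-FRT-H3-mKO. The cyst group (TrafficJam-Upd, CySC-like chromatin) carried w[1118], traffic Jam-GAL4 over UAS-Upd, and the same tagged histone. All crosses were kept at 25 °C, about 18 to 20 testis pairs were pooled per genetic type, and the labels name no age. No untreated or wild-type testis is among these groups, both groups carry Upd and tagged H3, and tagged chromatin comes from every cell in which the driver acts. No label says whether replicates came from separate crosses, so p-values measure the spread between these preparations.

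H3K4me3 is placed by COMPASS-type methyltransferases, and in flies it marks nucleosomes just downstream of active start sites, mostly those of broadly expressed genes. H3K27me3 is laid by Polycomb repressive complex 2 over silent developmental genes. H3K9me3 is bound by HP1 in heterochromatin. Promoters of broadly expressed fly genes often carry the DNA replication-related element (DRE), bound by Dref and BEAF-32, or the core of motif 1, bound by M1BP.

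Sequences of 8 members are printed as examples, read from the RefSeq Release 6 genome, whose chromosome ends equal those of the deposited table. The first 6 were picked by rank among members with a match to DRE, the motif 1 core or the E-box in the printed stretch. They therefore do not show how common these motifs are in the set. The first 6 are the 100 bases before a start site on the gene's own strand, with every match to the 6 motifs searched below in capitals. ncm, a splicing factor gene, and CG3862 carry TATCGATA (DRE). Hydr2 and Wdr81 carry GGTCACAC (motif 1 core), Rassf carries CAGCTG (E-box), and CG12010 carries CAGCTG beside a TATCGATA. The last 2 are coding stretches from members with no start site nearby, in eIF5B, a translation initiation GTPase gene, and in Capr, printed on the plus strand, with no match to these motifs. The lines below lie at chr2L:18448958-18449057 (minus strand), chr2L:825862-825961 (minus), chr2L:3163545-3163644 (plus), chr2L:12020961-12021060 (minus), chr3L:3374182-3374281 (plus), chr3R:23117932-23118031 (minus), chr3L:3459011-3459110 and chr3L:18670051-18670150, in that order.
ncm: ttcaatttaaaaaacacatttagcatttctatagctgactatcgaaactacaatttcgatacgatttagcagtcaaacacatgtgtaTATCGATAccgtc
CG3862: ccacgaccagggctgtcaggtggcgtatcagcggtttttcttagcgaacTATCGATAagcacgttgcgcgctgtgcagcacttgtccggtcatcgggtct
Hydr2: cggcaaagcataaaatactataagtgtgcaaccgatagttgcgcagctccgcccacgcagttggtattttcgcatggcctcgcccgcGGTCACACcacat
Wdr81: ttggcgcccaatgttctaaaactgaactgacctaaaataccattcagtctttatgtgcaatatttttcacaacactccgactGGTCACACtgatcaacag
CG12010: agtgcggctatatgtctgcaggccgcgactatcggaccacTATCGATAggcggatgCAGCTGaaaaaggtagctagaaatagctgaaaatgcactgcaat
Rassf: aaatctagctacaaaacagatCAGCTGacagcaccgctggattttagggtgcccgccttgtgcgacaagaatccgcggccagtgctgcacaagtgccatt
eIF5B: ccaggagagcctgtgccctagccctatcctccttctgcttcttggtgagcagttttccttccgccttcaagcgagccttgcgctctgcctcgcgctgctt
Capr: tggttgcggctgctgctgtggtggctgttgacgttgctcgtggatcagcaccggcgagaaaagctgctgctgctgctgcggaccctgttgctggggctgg
GC content is 32% and 57% in the 2 DRE stretches, and 60% and 64% in the 2 coding stretches.

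Motifs were counted in each gene's promoter window, from 250 bp before to 50 bp after the start, on both strands, for 295 promoters whose start lies in a member and for 20544 promoters in all. TATCGATA was in 84 member promoters (28.5%) against 6.71% of all. GGTCACAC was in 41 (13.9%) against 5.53%, and CAGCTG in 61 (20.7%) against 16.6%. The first 2 of these motifs were thus more frequent among member promoters, with no test made because the members were chosen on these libraries. TATAAA was in 37.6% against 41.3%, GAGAGA in 6.44% against 13.7%, and TTCNNNGAA, the form bound by STAT proteins, in 6.44% against 8.96%. The motifs do not contain each other, and median promoter GC content was 41.3% against 39.3%. Starts on both strands lay in 63 members (28.3% of those holding a start), against 12.3% of kept bins holding one. Promoter windows of such genes can overlap and share 1 match. Counted once per whole bin holding a start, TATCGATA was in 47 members (21.1%) against 7.47% of kept bins. By that count GGTCACAC was in 32 (14.3%) against 6.79%, and CAGCTG in 132 (59.2%) against 40.3%. TATAAA was in 35.0% against 71.2%, GAGAGA in 22.4% against 31.9%, and TTCNNNGAA in 20.6% against 26.8%. Median GC content of these whole bins was 51.4% against 42.5%. CAGCTG was also in 68.8% of members far from a start, so its whole-bin count is not particular to bins holding one.

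The values that chose the members are given as a description. Median log2 IP/input over the 500 members was 1.26 and 1.20 in germline replicates 1 and 2, and 1.40 and 1.27 in cyst replicates 1 and 2. Over all kept bins the medians lay between -0.01 and 0.03. The lowest of the 4 values ran from 1.86 in the first bin to 0.96 in the last. At the edge, the last 2 members, in DCTN2-p50 and pk, had 0.960 and 0.959, and the first 2 bins outside, in E(Pc) and CG6791, had 0.959 and 0.957, so the edge falls in a continuous slope.

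**Figure D1:**
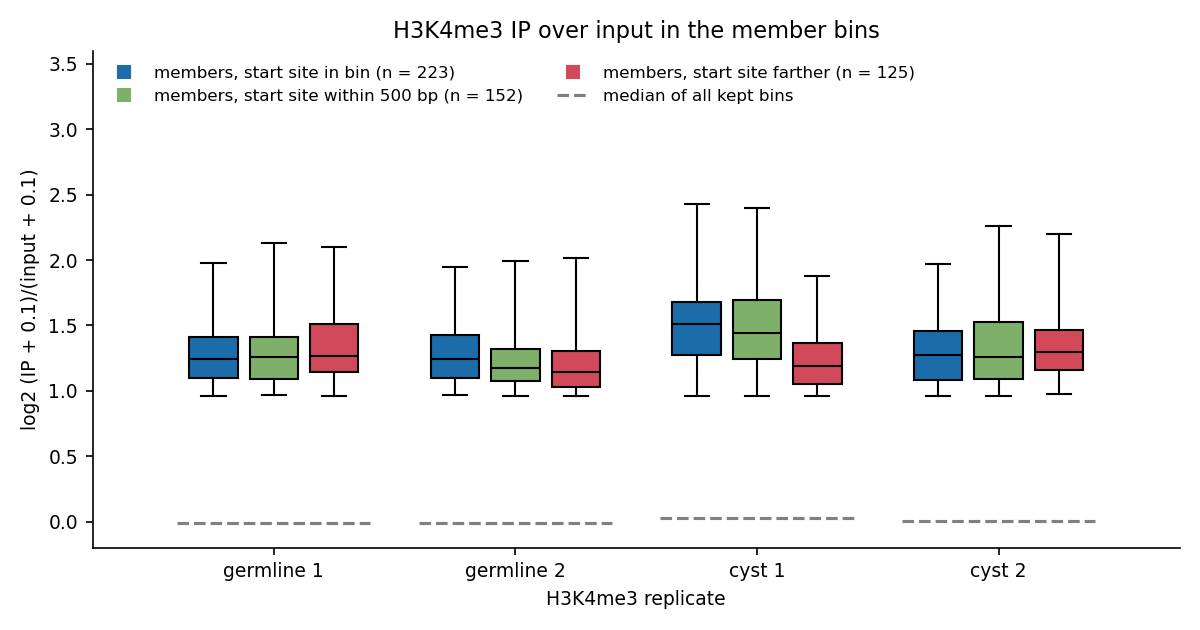
Log2 (IP + 0.1)/(input + 0.1) of the 500 member bins in each H3K4me3 replicate, split by distance to an annotated start site. Boxes span the quartiles with the median as a line, whiskers reach the lowest and highest member, and dashed lines are medians of all kept bins. Every member lies above 0.95 in each replicate by the rule, and cyst replicate 1 has the highest median, 1.40.

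Behind these ratios were few fragments in low inputs and more in the IPs of cyst tumours. H3K4me3 libraries held 3025440 to 14156857 recovered fragments on the chromosomes. Members had a median of 39 and 70 fragments in the germline inputs and 39 and 39 in the germline IPs. In cyst tumours the medians were 28 and 35 in the inputs and 91 and 113 in the IPs. At the median member each ratio thus rests on 28 to 113 fragments per library, before any spread between preparations.

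Signal is scaled so that the autosomal median is 1, and on that scale the members had both a raised IP and a lowered input. Median IP signal over members was 1.44 and 1.48 in germline and 2.06 and 2.23 in cyst replicates, and median input signal was 0.54 and 0.58 in germline and 0.69 and 0.83 in cyst. The 3 distance classes reached their similar ratios from different levels. Members holding a start had median IP signals of 1.63, 1.81, 2.78 and 3.00 and inputs of 0.63, 0.71, 0.94 and 1.19, in the order germline 1, germline 2, cyst 1, cyst 2. Members farther than 500 bp from a start had IP signals of 1.26, 1.23, 1.28 and 1.36 and inputs of 0.44, 0.47, 0.49 and 0.46. In the class far from starts the median IP was thus nearer to the autosomal level than the median input was.

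**Figure D2:**
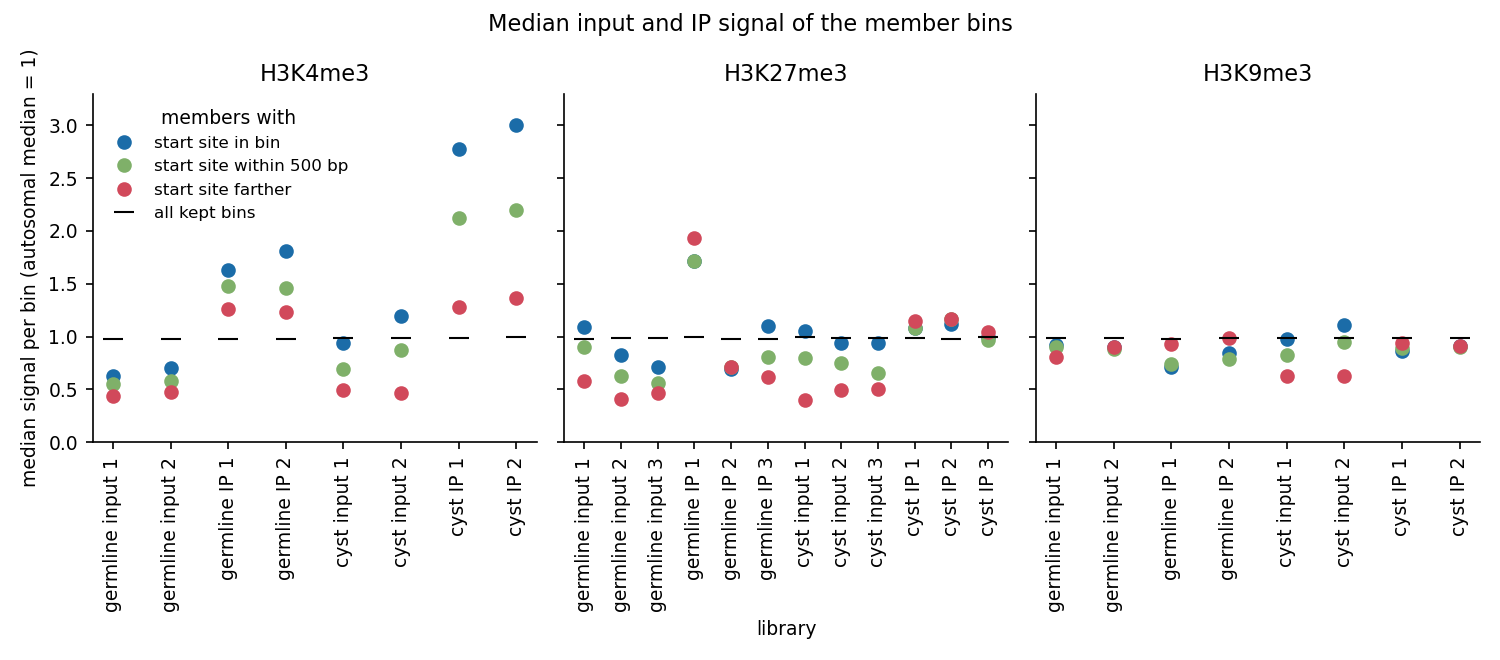
Median signal per bin (autosomal median set to 1) in each input and IP library for members by distance to a start site, with a black dash for all kept bins. Members far from a start have the lowest medians in the H3K4me3 inputs, 0.44 to 0.49, and IP medians of 1.23 to 1.36, while members holding a start reach 3.00 in cyst IP replicate 2.

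Low input was also seen in preparations the rule did not use, most of all far from starts. In the 10 inputs of the H3K27me3 and H3K9me3 preparations, median signal over members lay between 0.59 and 0.91. Members far from a start had 0.396 to 0.631 in 8 of these 10 inputs and 0.80 and 0.90 in the 2 germline H3K9me3 inputs. Kept bins had medians of 0.98 to 1.00 in each of them. Members holding a start had 0.717 to 0.978 in 7 of the 10 and lay above kept bins in the other 3, at 1.09 in germline H3K27me3 input 1, 1.06 in cyst H3K27me3 input 1 and 1.11 in cyst H3K9me3 input 2. Medians thus lay below those of all kept bins in all 10 libraries for members far from a start, and in 7 for members holding one, in some of these by little. Kept bins holding a start had medians of 0.98 to 1.19 in these inputs. Against that class, members holding a start were higher only in germline H3K27me3 input 1, at 1.09 against 1.04. In cyst H3K27me3 input 1 they had 1.06 against 1.19, and in cyst H3K9me3 input 2 they had 1.11 against 1.14.

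GC content moved with these values. GC content had a median of 51.4% in members holding a start, 55.1% in those within 500 bp and 57.4% in those farther away, against 42.5%, 42.9% and 41.7% in kept bins of the same classes. Across kept bins the Spearman correlation of GC content with log2 H3K4me3 IP/input was 0.75 and 0.68 in germline and 0.55 and 0.62 in cyst replicates, a description over bins that share a library. Members were also mostly coding, with 400 of 500 (80.0%) over 50% coding against 17.1% of kept bins, and 2 members held annotated transposon sequence (0.4% against 4.34%).

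**Figure D3:**
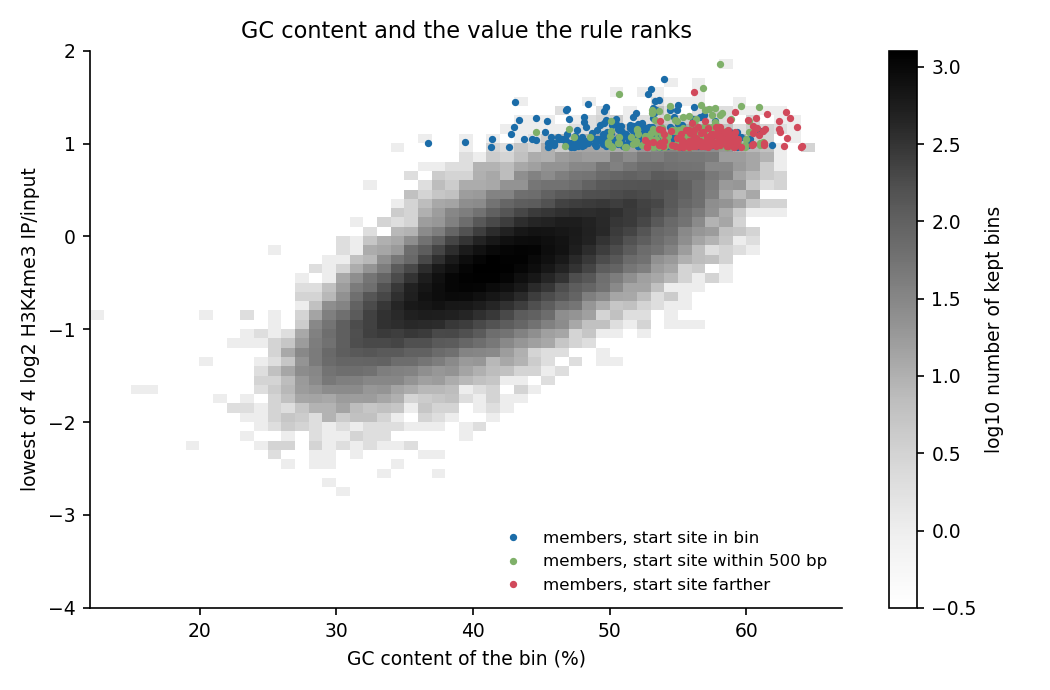
GC content of each bin in percent against the lowest of its 4 log2 H3K4me3 IP/input values. Grey shading gives the log10 number of kept bins, and coloured points are the members by distance to a start site. The grey cloud rises with GC content, and the median GC content is 54.4% in members and 41.9% in kept bins.

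A centring within whole GC percents, with sparse classes at both ends pooled, was added after the data were seen. It used the same H3K4me3 values that chose the members, so the centred values of the members are a description. They do not measure an effect apart from that choice. Median centred H3K4me3 values of the members came to 0.42 and 0.52 in germline and 0.77 and 0.57 in cyst replicates, with 90.2% to 99.4% of members above 0. Ranking kept bins by the lowest centred value gave a different set of 500. It shared 114 bins with the members, 441 of its bins held a start site, 46 lay within 500 bp of one and 13 lay farther, and its median GC content was 42.3%. Bins far from a start thus make up 13 of that set against 125 of the members.

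Around start sites themselves the ratio was not flat. Over 288 member start sites of protein-coding genes, the log2 ratio of mean IP to mean input peaked 120 to 180 bp downstream, at 1.88 and 2.00 in germline and 2.01 and 1.57 in cyst replicates. From 100 to 20 bp upstream it was 0.40, 0.36, -0.04 and 0.19 in the same order. At 60 to 200 bp downstream mean IP signal was 3.44, 4.19, 7.70 and 8.46 where mean input was 1.03, 1.13, 1.99 and 2.99, so here the input was not below the autosomal level. The 16295 other start sites peaked at 140 bp, at 0.76, 0.89, 1.22 and 0.74, within the same stretch and at a lower level.

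**Figure D4:**
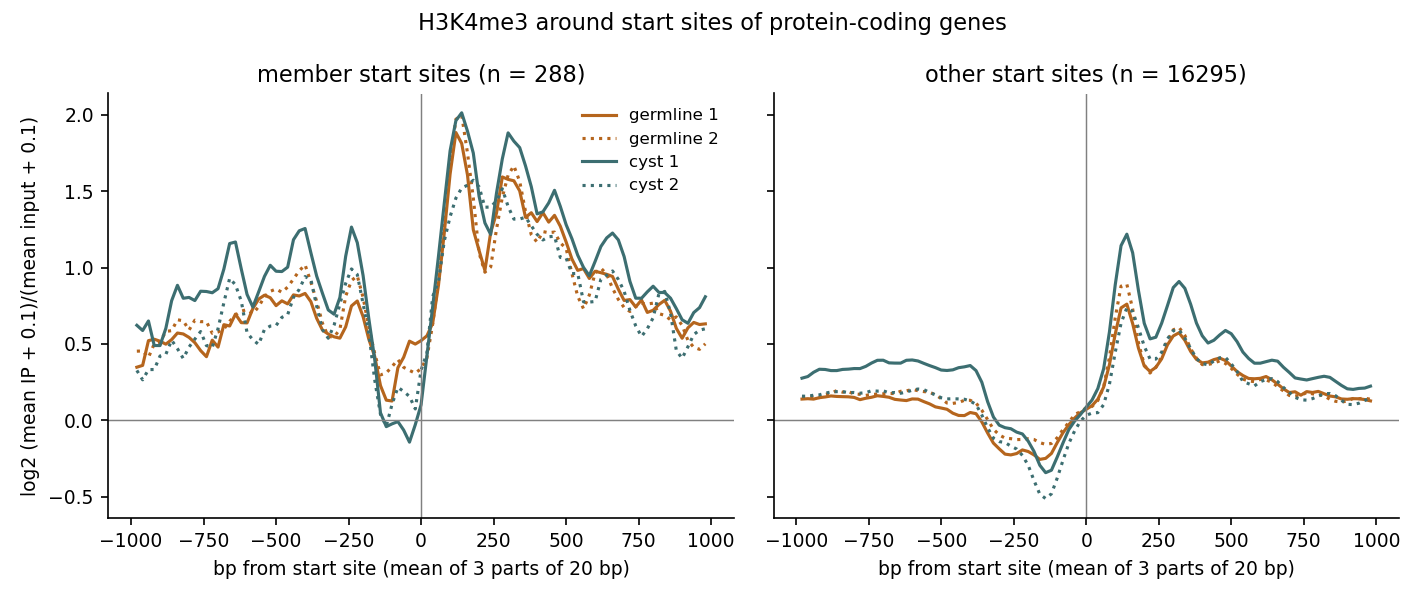
Log2 ratio of mean H3K4me3 IP to mean input signal from 1000 bp before to 1000 bp after start sites of protein-coding genes, for starts in members (left) and other starts in kept bins (right), as a running mean of 3 parts of 20 bp, 1 line per replicate. Lines peak 120 to 180 bp downstream at 1.57 to 2.01 for members and at 140 bp at 0.74 to 1.22 for other starts.

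Members mostly stood as single bins and were spread over the genome. The rule used the same values, so this gives no width of the mark. They form 487 stretches, of which 474 are single bins, 13 are pairs and 0 are longer. Bins next to a member had median log2 H3K4me3 IP/input of 0.36 to 0.52, and bins 5 kb away had 0.20 to 0.34. Chromosome arms 2L, 2R, 3L and 3R held 100, 126, 108 and 120 members, and the X held 46. The X share of 9.2% was below its 15.6% of kept bins, and 17856 of 23543 X bins passed the input filter. The X is present in 1 copy in males, which was not corrected for here. Members per 100 ranks holding a start were 53, 38, 57, 43 and 32, with no steady order.

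The first-ranked bin, chr3R:20327001-20328000 in CG4360, lay 3 bp from a start and had log2 IP/input of 2.13 and 2.00 in germline and 2.10 and 1.86 in cyst, on IP signals of 2.02, 2.37, 3.33 and 4.07. Rank 2, chr3R:15263001-15264000, holds starts of Set, a histone chaperone gene, Su(var)3-9, which encodes an H3K9 methyltransferase, and eIF2gamma, a translation initiation subunit. Its values came to 1.97 and 1.93 in germline and 1.71 and 1.70 in cyst, on IP signals of 3.31, 3.15, 6.22 and 5.78 against inputs of 0.77, 0.76, 1.83 and 1.71. In both bins IP signal was above 2 in every replicate, where the autosomal median is 1.

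Ranks 3 to 10 mixed start bins with coding bins. Mau2, a cohesin loader gene (rank 4), had 1.67, 1.64, 1.59 and 1.76, in the order germline 1, germline 2, cyst 1, cyst 2. Brd8, of the Tip60 acetyltransferase complex, and Cisd2 (rank 9) had 1.48, 1.46, 2.30 and 1.48. In both bins germline replicates lay close together, and in the Brd8 bin cyst replicate 1 stood apart from the rest. The eIF5B bin (rank 5), all coding and 603 bp from a start, had 1.63, 1.56, 1.60 and 2.20, on IP signals of 1.19, 1.29, 2.02 and 2.44 and inputs of 0.31, 0.37, 0.60 and 0.45. The other 5 hold or neighbour starts of Regnase-1, CG15160, Mob4 with the vesicle transport GTPase gene Rab2, cpb (an actin capping subunit), and CG3817 with the nuclear pore gene Nup93-2, with values of 1.45 to 2.15.

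Of 13308 protein-coding genes with a start in a kept bin, 286 (2.15%) had one in a member. Gene lists were chosen with earlier results of these data known, so their counts are descriptions. Proteasome subunits had 5 of 45 (11.1%), namely Prosbeta1, Rpn1, Rpn10, Rpn12 and Rpt1, and translation factors 5 of 49 (10.2%), namely eIF2alpha, eIF2gamma, eIF3a, eIF3h and eIF3j. Mitochondrial ribosomal proteins had 4 of 72 (mRpL17, mRpL18, mRpL19, mRpL47), cytosolic ribosomal proteins 3 of 84 (RpL26, RpL36A, RpS7), oxidative phosphorylation 3 of 85 (ATPsyngamma, COX6B, ND-B12) and splicing factors 2 of 30 (Prp40, Prp8). Members thus reach into several housekeeping lists without covering any.

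For Rpt1, an ATPase of the proteasome, log2 IP/input was 1.38 and 1.43 in germline and 1.73 and 1.41 in cyst. For Prp8, a core splicing factor, it was 1.24 and 1.13 in germline and 1.99 and 1.43 in cyst. RpS7 had 1.11 and 1.18 in germline and 2.16 and 1.96 in cyst. Germline replicates lay below cyst replicates in Prp8 and RpS7, and in Rpt1 the groups overlapped.

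Of 12 JAK-STAT genes, those the overexpressed ligand acts through, 1 was a member, Su(var)2-10, a PIAS-type inhibitor of STAT. It had 1.37 and 1.39 in germline and 1.67 and 1.39 in cyst. Cell cycle genes had 2 of 24, CycB3 and Dp, and chromatin regulators 1 of 29, Su(var)3-9. Lists for other tissues or later stages gave 0 of 175 chemosensory receptors, 1 of 91 cuticle proteins (Cpr64Ad), 0 of 8 Hox genes and 0 of 18 spermatocyte and spermatid genes. Among genes listed as markers of the labelled cells, 0 of 12 germline and 0 of 12 cyst lineage genes were members. The same held for 0 of 7 markers of muscle, neurons and blood cells. Against 2.15% of all protein-coding genes, counts of 0 or 1 do not set apart lists of 7 to 18 genes. The start bin of vas, the germline helicase gene, had -0.86 and -0.97 in germline and -0.58 and -1.07 in cyst. The start bin of tj, the cyst lineage transcription factor gene, had 0.70 and 0.58 in germline and 0.44 and 0.87 in cyst. At both of these starts the replicates of the tumour types overlapped. Over the whole lists, replicates overlapped at 11 of 12 germline markers, with cyst higher at stai, and at 8 of 12 genes of the cyst lineage list. Of all kept bins, 17.7% had germline higher and 23.2% had cyst higher without overlap, and the rest overlapped. Lists of 12 genes are too short to be set apart from these shares. That list is not limited to genes of cyst cells, and upd1 is also on the JAK-STAT list. Of the other 4 genes of the cyst lineage list, cyst was higher at zfh1 (-0.04 and 0.23 in germline, 1.32 and 0.43 in cyst) and upd1 (0.44 and 0.39, against 0.53 and 0.67). Germline was higher at ptc (0.84 and 0.13, against -0.07 and -0.68) and Fas3 (0.22 and 0.28, against 0.11 and 0.09). Those 4 thus went both ways, 2 in each direction.

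Germline and cyst replicates were compared within the members as a description, since the rule used these values and each tumour type was sequenced on its own flow cell for H3K4me3, which cannot be told apart from the tumour type. Replicates did not overlap in 48 members with germline higher (9.6%, against 17.7% of kept bins) and in 143 with cyst higher (28.6%, against 23.2%). They overlapped in 309 members. The median germline minus cyst difference was -0.10, with a range from -1.03 to 0.60.

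The 5 largest differences toward cyst were in or by Ucp4A (a mitochondrial carrier gene), RpS7, Hecw (a ubiquitin ligase gene), Cat (the catalase gene) and Nup107 (a nuclear pore gene). At Ucp4A the values came to 1.06 and 0.98 in germline and 2.09 and 2.02 in cyst, on IP signals of 1.00, 0.75, 1.87 and 1.94 and inputs between 0.33 and 0.43. The gap there lies in the IP signal. The 5 toward germline were Orc1, CG5504, pk, ast and gbb, which encodes a BMP ligand. At Orc1, an origin recognition gene, the values came to 1.95 and 1.41 in germline and 1.17 and 0.99 in cyst. At gbb they came to 1.79 and 1.47 in germline and 1.02 and 1.27 in cyst. In 4 of these 5 bins the germline replicates differ by more than 0.2 between themselves.

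H3K27me3 and H3K9me3 libraries were not used by the rule, and IP against input was tested there. The rule favours bins with a low H3K4me3 input, and median input over members was low in these preparations too. Their ratios are thus not independent of the choice of members. How much of an IP effect rests on low input was not tested. Fits were made over all 114369 kept bins with limma and Benjamini-Hochberg adjustment, and IP effects were called at an adjusted p under 0.05 and a fold over 1.5. In bulk chromatin, fewer marked cells and less mark per cell cannot be told apart.

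H3K27me3 log2 IP/input had member medians of 0.89, 0.09 and 0.43 in germline replicates 1 to 3 and 0.41, 0.58 and 0.48 in cyst replicates 1 to 3, against -0.03 to 0.11 in kept bins. Germline replicate 1 has the shallowest IP, with 942943 fragments in the library, and germline replicate 3 was on another flow cell. The values were highest far from starts, at 1.55, 0.66, 0.37, 1.31, 1.11 and 0.88 in the same order, and at bins holding a start they were 0.51, -0.24, 0.51, -0.06, 0.30 and 0.11. In 5 of 6 replicates the class median was higher the farther the class lay from a start, and germline replicate 3 had the opposite order. Far from starts, median IP signals were 1.93, 0.71, 0.61, 1.15, 1.16 and 1.04, against 0.98 to 1.00 in kept bins. The inputs of that class were 0.58, 0.41, 0.47, 0.40, 0.49 and 0.51.

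No H3K27me3 effect was called in the main fit. limma called 0 of 500 members higher and 0 lower in germline (0% of kept bins each), 0 and 0 in cyst (0% each), and 0 and 0 for the difference between tumour types (0% each). With unadjusted p-values below 0.05 and that fold, 125 members (25.0%) were higher in germline against 8.07% of kept bins, and 183 (36.6%) were higher in cyst against 6.12%. Lower were 0 in germline against 9.5%, and 23 (4.6%) in cyst against 4.46%. For the difference, 15 members were higher in germline against 1.7%, and 9 lower against 1.18%. edgeR on recovered fragments called 16 members (3.2%) higher in cyst, against 0.119% of kept bins, and 0 in the other H3K27me3 comparisons. A fit without germline replicate 1 called 133 higher (against 2.41% of kept bins) and 4 lower (against 1.47%) in cyst. With the replicate as a block 5 were called higher in germline, against 0.171%. The members' median IP effect of 0.50 in germline and 0.49 in cyst became -0.17 and -0.10 when signal was centred within GC percent, so its sign changed under that centring.

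Single bins spanned a wide range. The lowest mean H3K27me3 was at Slik, a kinase gene, with 0.05, -1.67 and 0.43 in germline and -1.51, -1.40 and -1.58 in cyst. Mapmodulin and wapl came next, and all 3 bins hold a start. The highest was the coding bin in Orc1, with 1.62, 0.67 and 0.57 in germline and 1.40, 3.88 and 4.71 in cyst, where IP signal was 1.26, 11.9 and 14.3 in the 3 cyst replicates. There 2 of 3 cyst replicates stood far above the third, and the fitted cyst effect of 3.33 ± 0.66 (SE) had an adjusted p of 0.169. Next were coding bins in brp, a presynaptic gene, and mirr, an Iroquois homeobox gene, with all 6 replicates above 0 in each.

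H3K9me3 log2 IP/input had member medians near 0, of -0.20 and -0.03 in germline and 0.08 and -0.04 in cyst replicates, and these hid a split by class. Members holding a start had -0.38, -0.06, -0.15 and -0.29, while members far from a start had 0.18, 0.13, 0.54 and 0.52, in the order germline 1, germline 2, cyst 1, cyst 2. In every replicate the class far from starts was the highest of the 3. Its median IP signals were 0.93, 0.99, 0.94 and 0.91 in that order, against 0.98 to 0.99 in kept bins. The inputs of that class were 0.80, 0.90, 0.62 and 0.63, against 0.98 to 0.99 in kept bins. In cyst tumours its IP signal was thus not above that of kept bins, while its input was below.

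In cyst tumours limma called 56 members higher (11.2%, against 1.84% of kept bins) and 44 lower (8.8%, against 4.92%) in IP than in input. Of the 56, 44 lay farther than 500 bp from a start, and of the 44, 39 held a start. Members called higher far from a start were 35.2% of that class, against 2.26% of kept bins in it. In germline tumours 10 were higher (2.0%, against 0.778%) and 24 lower (4.8%, against 1.07%), with 9 of the 10 far from a start and 20 of the 24 holding one. Among members holding a start the share lower in cyst, 17.5%, was near the 18.4% of all kept bins holding a start. Centred within GC percent, 4 members were higher (against 1.06%) and 82 lower (against 3.68%) in cyst, and 7 higher (against 0.772%) and 22 lower (against 0.968%) in germline. Centring thus lowered the number above input in cyst and raised the number below it. Without germline replicate 1 there were 0 members called in germline in either direction (against 0.0157% and 0.00525% of kept bins), and without germline replicate 2 there was 1 higher (against 0.115%). Without cyst replicate 1 there were 34 higher in cyst (against 1.54%), and without cyst replicate 2 there were 27 lower (against 4.32%). A pseudocount of 0.5 left 11 higher (against 0.155%) and 17 lower (against 1.9%) in cyst, and 1 higher (against 0.117%) and 4 lower (against 0.115%) in germline.

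The bins below input in cyst tumours with the largest effects were at wapl, chic, Cdc50 with rngo, Klp10A and crol. At wapl, whose product releases cohesin, H3K9me3 log2 IP/input was -1.05 and -0.43 in germline, -1.56 and -1.49 in cyst, and the fitted cyst effect was -1.52 ± 0.17 (SE, adjusted p = 3.14e-07). At chic, the profilin gene, it was -1.06 and -0.36 in germline and -1.10 and -1.42 in cyst (-1.26 ± 0.14, limma adjusted p = 6.89e-07). At both genes all 4 replicates were below 0, and all 5 bins were also called under the GC-centred fit. At Klp10A, a microtubule-depolymerising kinesin gene, germline had -1.55 and -0.77 and cyst -1.12 and -1.26, and at crol, a zinc finger gene, germline had -1.22 and -0.87 and cyst -1.29 and -0.98. All 5 were also called lower in germline, where the 5 largest effects were at Klp10A, CG5569 with Cpes, crol, the bin of COX6B, and ATPsyngamma with yata.

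Above input in cyst, the largest effects were in trh, L, slou, CG12523 and an intergenic bin at chr2R:4542001-4543000. At trh, a tracheal bHLH-PAS gene, values came to 0.74 and 0.68 in germline and 1.15 and 1.05 in cyst (1.10 ± 0.14, limma adjusted p = 2.81e-06). At slou, a homeobox gene, they came to 0.66 and 0.34 in germline and 1.07 and 0.88 in cyst. All replicates were above 0 in both, and the calls at slou and CG12523 were lost when centred within GC percent, with effects of 0.52 and 0.52. In germline the largest were bab2, noc, tio, trh and the same intergenic bin, and bab2, noc and tio encode developmental transcription factors. At bab2 the values came to 1.01 and 0.71 in germline and 1.18 and 0.54 in cyst.

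**Figure D5:**
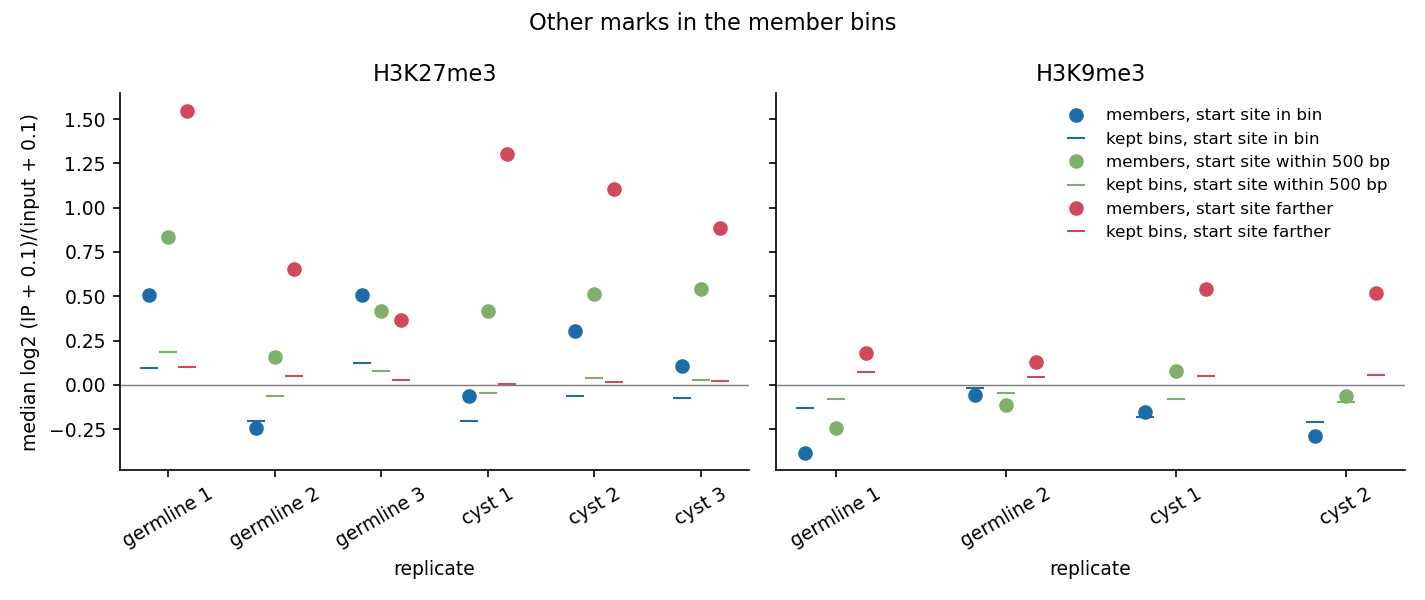
Median log2 (IP + 0.1)/(input + 0.1) of H3K27me3 and H3K9me3 in each replicate for members (points) and kept bins (dashes) by distance to a start site. Members far from a start reach 1.55 for H3K27me3 in germline replicate 1 and 0.54 for H3K9me3 in cyst replicate 1, and members holding a start have H3K9me3 medians of -0.38 to -0.06.

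The H3K9me3 effect differed between tumour types in 3 members, all lower in germline (0.6%, against 0.0621% of kept bins), and in 0 with germline higher (against 0.501%). With unadjusted p-values under 0.05, 15 members (3.0%) were higher against 7.15% of kept bins, and 77 (15.4%) were lower against 4.32%. edgeR called 1 higher (against 0.862%) and 7 lower (against 0.195%). The 3 are coding bins in L, Cat and CG13084. At L the values came to 0.25 and 0.09 in germline and 0.96 and 1.12 in cyst, a difference of -0.87 ± 0.19 (SE, limma adjusted p = 0.0246). At Cat they came to -0.22 and -0.36 in germline and 0.57 and 0.52 in cyst (-0.84 ± 0.20, limma adjusted p = 0.0489). At CG13084 they came to -0.22 and -0.18 in germline and 0.74 and 0.53 in cyst (-0.83 ± 0.19, limma adjusted p = 0.0352). Replicates did not overlap in any of the 3, and each call was lost without any 1 of the 4 replicates and when centred within GC percent, where the differences were -0.57, -0.58 and -0.52.

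Input signal was compared between tumour types over the 10 inputs of the other marks, 5 per type, with the mark as a covariate. limma called 0 members higher in germline (against 0.0971% of kept bins) and 1 lower (0.2%, against 0.275%), while at an unadjusted p under 0.05 22 (4.4%) were higher against 5.4%, and 74 (14.8%) lower against 12.4%. The called bin holds starts of Cdc50 and rngo. Its input signal was 1.12, 0.88, 0.77, 0.92 and 1.00 in the germline preparations and 1.81, 1.37, 1.79, 1.33 and 1.38 in the cyst preparations, and the groups did not overlap. The difference was -0.66 ± 0.13 (SE, limma adjusted p = 0.0458), and this call was lost with the replicate block (0 members, against 0.0035% of kept bins). Without 1 replicate the number lower ranged from 0 members (0.0227% of kept bins without germline H3K9me3 replicate 2) to 11 (3.06% without cyst H3K27me3 replicate 2). Centred within GC percent, 40 members (against 1.36% of kept bins) were lower in germline. edgeR on the uncentred fragments called 10 members (2.0%) higher and 31 (6.2%) lower, near its 2.54% and 5.91% of kept bins.

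A replicate left out of the ranking gives values that did not rank the bins, though its input still had to pass the filter. With each H3K4me3 replicate left out in turn and 500 bins chosen on the other 3, the median in the replicate left out was 1.15 and 1.04 in germline and 1.26 and 1.11 in cyst. Of the 500, 65.6%, 48.4%, 68.4% and 59.0% reached, in the replicate left out, the lowest value by which the other 3 had chosen them, against 3.22%, 1.57%, 3.73% and 2.90% of kept bins, in the order germline 1, germline 2, cyst 1, cyst 2. High ratios thus recurred in replicates that had not ranked the bins, and base composition of a bin is the same in every replicate. The sets chosen without 1 replicate shared 295 to 364 bins with the members. Within the members, the order of bins hardly recurred, with Spearman correlations between replicates of 0.04 to 0.24, where a common lower bound narrows the range.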

How the data were processed

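The authors deposited 1 table of coverage signal for the 28 libraries in windows of 40 bp every 20 bp, per the file headers. The submitters' processing notes name Bowtie2 2.4.5 and build dm6, with other settings not given in the sources read. Signal values were whole multiples of 1 step per library in 100% of cases (tolerance 0.01), so fragments were recovered and edgeR 4.0.16 was run on them as an alternative. The authors' scaling sets the autosomal median to 1, which removes depth and any genome-wide change of a mark.

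Signal was averaged over 1000-bp bins, and the rule given in the report was applied with a pseudocount of 0.1. limma 3.58.1 in R 4.3.3, with a mean-variance trend, was fitted on log2(signal + 0.1) per mark over all kept bins, with groups sharing 1 spread. The plan named edgeR for raw counts and limma for scaled signal. Log2 values understate changes at low signal. The fits were tested on simulated data. Start sites and exons come from the BDGP6 annotation, whose 5 chromosome ends equal those of the table. A bin is named by the genes that start in it, or else by the gene it lies in ("in").

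The members and gene lists were chosen with earlier results of these data known. Named bins are ranks 1 to 10, the edge of the rule, the 5 largest germline and cyst differences without overlap, the 3 highest and lowest per other mark, up to 5 per called test and direction, and bins with starts of listed genes. The start bins of marker genes, and the list members given with values, were chosen after their values were seen.

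Per the labels' protocols, input is a portion of the solubilised chromatin that is then immunoprecipitated, so same-numbered input and IP were paired in the ratios and in an alternative fit with a replicate block. Correlations of their deviations from group means were -0.01 and 0.07 for H3K4me3, -0.05 and 0.12 for H3K9me3, and -0.05 to 0.41 for H3K27me3.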

Additional observations from a re-analysis of the deposited data

Results flagged for a closer look

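The IP minus input effect of H3K9me3 differed between germline and cyst tumours in 3 member bins by the interaction test in limma. On the log2 scale the germline minus cyst difference was -0.87 in the bin in L, -0.84 in the bin in Cat and -0.83 in the bin in CG13084. In each, both germline replicates lay below both cyst replicates. None of the 3 differences was called when signal was centred within GC percent or when any 1 H3K9me3 replicate was left out.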

How the results depend on the processing

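Other settings moved several counts of members by over 1.5 times, and apart from centring, whose construction removes what GC content shares with the signal, the cause was not tested. H3K27me3 higher calls, 0 in the main limma fit, became 5 in germline with a replicate block and 16 in cyst with edgeR. Leaving out 1 replicate gave 0 to 133 higher and 0 to 4 lower in cyst. For H3K9me3, a pseudocount of 0.5 left 1 higher and 4 lower in germline and 11 higher and 17 lower in cyst, and called 1 difference with germline higher. Testing with no filter on bins left 0 and 0 in germline, 23 and 13 in cyst and 0 differences. Centring within GC percent, chosen after seeing the data, gave 4 higher and 82 lower in cyst, 0 differences and 40 inputs lower. Without 1 replicate, H3K9me3 calls ran from 0 to 10 higher and 0 to 30 lower in germline, from 34 to 56 higher and 27 to 44 lower in cyst, and from 0 to 4 higher and 0 to 0 lower for the difference. Without germline replicate 1 there were 0 calls in germline for either direction. The replicate block called 1 difference with germline higher and 0 inputs lower, and edgeR called 1 higher and 7 lower differences, with 10 inputs higher and 31 lower. Inputs lower were 3 with no filter, and without 1 replicate inputs ran from 0 to 2 higher and 0 to 11 lower. The replicate block moved no other count by over 1.5 times.

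For the rule itself, 254 members stayed among the first 500 with an input filter of 0.5, 321 with the mean of the 4 values, and 295 to 364 without 1 replicate. With bins shifted by 500 bp, 130 members overlapped a bin among the first 500, and with GC-centred values 114 stayed. Bins far from a start numbered 72 with a pseudocount of 0.5, 49 with the stricter filter, 109 to 179 without 1 replicate, and 13 with GC-centred values, which held 441 starts and 46 bins within 500 bp. Without 1 replicate the start class held 187 to 250 bins and the class within 500 bp 134 to 153. Over 24 results for named bins, 186 of 246 alternatives kept the call, 60 lost it and 0 reversed. Depth limits single bins most in the H3K27me3 IP of germline replicate 1, where members had a median of 12 fragments.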
